A study of Homo sapiens with 6 samples.

Results

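The serine synthesis and folate one-carbon enzymes were followed in lung cancer cells with and without knockdown of BCAT1. The members were 9 genes chosen by name from the 60664 genes of the table, and all 9 passed the filter on low values. PHGDH, PSAT1 and PSPH make serine, SHMT1 and MTHFD1 work in the cytosolic folate cycle, and SHMT2, MTHFD2, MTHFD1L and ALDH1L2 work in the mitochondrial one. The cells were 67R, an NCI-H1975 lung adenocarcinoma line (a non-small cell lung cancer line with activating and resistance mutations of EGFR) that had become resistant to the EGFR inhibitor ASK120067 through exposure to rising doses. They received a negative control siRNA (siNC, 3 libraries) or siRNA against BCAT1 (siBCAT1, 3 libraries), and both groups share the resistant background. No library of the parental line was analysed here, the time after transfection is not given in the sources used here, and neither the labels nor the RNA-seq methods say whether the 3 libraries of a group came from separate cultures, so p-values measure only the spread between these libraries, which may be technical. The study's methods use the name siBCAT1 for a single siRNA sequence, so loss of BCAT1 and any other effect of that siRNA cannot be told apart.

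Serine is drawn from the glycolytic intermediate 3-phosphoglycerate in a chain of PHGDH, PSAT1 and PSPH. The serine hydroxymethyltransferases SHMT1 and SHMT2 then move a carbon of serine onto tetrahydrofolate, leaving glycine. In the mitochondrion MTHFD2, MTHFD1L and ALDH1L2 carry that carbon stepwise to formate or to carbon dioxide, and in the cytosol the trifunctional MTHFD1 takes up formate and returns it to folate for purine and thymidylate synthesis. PSAT1, like BCAT1, is a transaminase that pairs glutamate with α-ketoglutarate, and several of these genes are known targets of the stress factor ATF4.

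Across the libraries 7 of the 9 enzymes rose after BCAT1 knockdown, none fell, and MTHFD2 and MTHFD1L did not pass the test (limma on log2(TPM + 1), Benjamini-Hochberg over all 14286 genes tested, threshold 0.05). TPM is an abundance scaled for gene length and library total. The background was high: 16.7% of all tested genes were called higher and 10.4% were called lower. The excess of higher calls, 2382 against 1483, was smaller with median-ratio scaling (1957 against 1802) and quantile normalization (2042 against 1865). All 9 enzymes had a higher mean in siBCAT1, with a median log2 fold change of 0.40 against 0.04 over all tested genes. In 8 of 9 every siBCAT1 library lay above every siNC library, a pattern that 26.1% of all tested genes showed. These were bulk libraries, in which a change in the share of cells and a change in RNA per cell cannot be told apart.

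**Figure D1:**
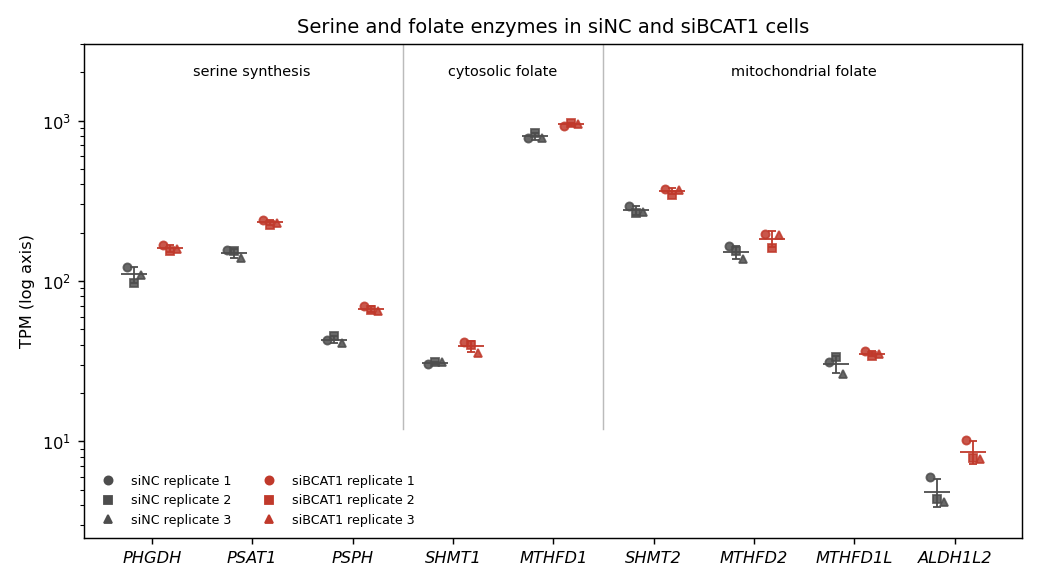
TPM (log axis) of the 9 enzymes in each siNC (grey) and siBCAT1 (red) library, with symbols for replicate numbers and horizontal lines with bars for the mean ± SD of 3 libraries. The siBCAT1 points lie above the siNC points for every enzyme other than MTHFD2, whose groups overlap.

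The targeted gene followed its labels. BCAT1, the cytosolic branched-chain aminotransferase, was at 42.70, 42.18 and 29.76 TPM in siNC and at 8.78, 7.10 and 8.0 TPM in siBCAT1. It fell by 2.12 on the log2 scale (SE 0.15, adjusted p = 0.000272, limma), and no siBCAT1 library reached the lowest siNC library. Of the lung adenocarcinoma markers, NKX2-1, NAPSA and SFTPB were at or near 0 (at most 0.33 TPM), while KRT7, KRT8 and KRT18 were the most abundant. KRT7, KRT8, KRT18, KRT19 and CDH1 fell, 5 of the 6 epithelial markers tested, with log2 fold changes from -2.41 (CDH1) to -0.33 (KRT18), and the summed level of the list went from 2546 to 2948 TPM in siNC to 1648 to 1936 TPM in siBCAT1. EPCAM, the other marker tested, averaged 1.27 ± 0.327 TPM under siNC and 2.33 ± 0.334 TPM under siBCAT1, with every siBCAT1 library above every siNC library (0.56, adjusted p = 0.0732, not called). The fall of KRT8 was not called without siBCAT1 replicate 1 (adjusted p = 0.0524), and that of KRT18 was not called without siNC replicate 3 or any single siBCAT1 library (0.0506 to 0.0884) or with no filter on low values (0.0745). Of 9 markers of immune, fibroblast and endothelial cells, CD3E and DCN were at 0 in all 6 libraries and PTPRC, PECAM1, VWF and COL3A1 stayed under 1 TPM. The endothelial marker CDH5 was at 0.86, 0.77 and 0.69 TPM in siNC and at 1.68, 0.86 and 2.56 TPM in siBCAT1. Its log2 fold change was 0.56 (adjusted p = 0.176, limma, not called). The macrophage-associated lysosomal gene CD68 rose by 0.71 and COL1A1 fell by 0.68 on the log2 scale, and the summed level of this list was 42.2 to 55.8 TPM in siNC and 62.7 to 71.9 TPM in siBCAT1. The call of COL1A1 was lost without siNC replicate 1 or 3 or siBCAT1 replicate 2 or 3 (adjusted p = 0.0745 to 0.0886) and with no filter (0.0631). The part of these marker changes in the enzyme results was not tested.

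All 3 enzymes of serine synthesis rose, with log2 fold changes from 0.55 to 0.63. PHGDH (ENSG00000092621, chromosome 1, 119648411 to 119744226, plus strand, GRCh38), the dehydrogenase that opens the pathway, was at 122.67, 97.65 and 108.77 TPM in siNC and at 168.57, 153.30 and 158.48 TPM in siBCAT1. The lowest siBCAT1 library stood above the highest siNC library. The means were 109.7 ± 12.5 and 160.1 ± 7.77 TPM (SD, n = 3 each), a ratio of 1.46, and the log2 fold change was 0.55 (SE 0.09, 95% interval 0.34 to 0.76, adjusted p = 0.00506, limma).

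PSAT1 (ENSG00000135069, chromosome 9, 78297143 to 78330093, plus strand), the phosphoserine transaminase, was at 155.13, 152.87 and 138.57 TPM in siNC and at 240.70, 223.79 and 229.72 TPM in siBCAT1. The gap between the groups, from 155.13 to 223.79 TPM, was wider than the spread within either. Its mean went from 148.9 ± 8.98 to 231.4 ± 8.58 TPM, a log2 fold change of 0.63 (SE 0.06, 95% interval 0.49 to 0.78, adjusted p = 0.000809, limma), the smallest p of the 9 enzymes.

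PSPH (ENSG00000146733, chromosome 7, 56011051 to 56051604, minus strand), the phosphatase that releases serine, was at 42.90, 45.19 and 41.02 TPM in siNC and at 69.94, 65.50 and 65.36 TPM in siBCAT1. The groups did not overlap. The mean went from 43.0 ± 2.09 to 66.9 ± 2.61 TPM, with a log2 fold change of 0.63 (SE 0.07, 95% interval 0.47 to 0.78, adjusted p = 0.00109, limma). Summed over the 3 enzymes, the pathway held 301.6 ± 17.0 TPM in siNC and 458.5 ± 18.8 TPM in siBCAT1, a ratio of 1.52. PHGDH, PSAT1 and PSPH stayed past the threshold of adjusted p in all 14 alternative settings and left-out libraries without a minimum fold change, as did SHMT2.

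Both cytosolic folate enzymes rose, with log2 fold changes of 0.33 for SHMT1 and 0.25 for MTHFD1. SHMT1 (ENSG00000176974, chromosome 17, 18327860 to 18363563, minus strand), the cytosolic serine hydroxymethyltransferase, was at 30.34, 31.01 and 31.12 TPM in siNC and at 41.40, 40.12 and 35.63 TPM in siBCAT1. The siNC libraries lay within 1 TPM of each other, the tightest group of all, and siBCAT1 replicate 3 was the closest to them. The mean went from 30.8 ± 0.42 to 39.1 ± 3.03 TPM, with a log2 fold change of 0.33 (SE 0.08, 95% interval 0.15 to 0.51, adjusted p = 0.0209, limma). This call rested on few libraries: the adjusted p (limma) was 0.0688 without siNC replicate 1, 0.0566 without siNC replicate 3, 0.0696 without siBCAT1 replicate 1 and 0.0727 without siBCAT1 replicate 2. The SHMT1 locus overlaps SMCR8 on the opposite strand (15.1 TPM in siNC and 18.3 TPM in siBCAT1).

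MTHFD1 (ENSG00000100714, chromosome 14, 64388031 to 64463457, plus strand), the trifunctional cytosolic enzyme, was at 773.42, 835.47 and 776.93 TPM in siNC and at 929.15, 963.33 and 950.19 TPM in siBCAT1. It was the most abundant of the 9 in every library and ranked 175 of all genes by its siNC mean. The mean went from 795 ± 34.9 to 948 ± 17.2 TPM without overlap, with a log2 fold change of 0.25 (SE 0.05, 95% interval 0.15 to 0.36, adjusted p = 0.00695, limma), and median-ratio scaling of the libraries took the adjusted p to 0.0573. Its locus overlaps ZBTB25 on the opposite strand (18.2 TPM in siNC and 25.7 TPM in siBCAT1). The library kit keeps strand, but whether the counting used it is not given in the sources used here, which applies to SHMT1 and ALDH1L2 too.

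Among the mitochondrial enzymes SHMT2 and ALDH1L2 rose, and MTHFD2 and MTHFD1L did not pass the test. SHMT2 (ENSG00000182199, chromosome 12, 57229327 to 57234935, plus strand), the mitochondrial serine hydroxymethyltransferase, was at 294.99, 265.50 and 267.43 TPM in siNC and at 372.90, 345.37 and 370.81 TPM in siBCAT1. Every siBCAT1 library lay above the highest siNC library. The mean went from 276 ± 16.5 to 363 ± 15.3 TPM, with a log2 fold change of 0.40 (SE 0.06, 95% interval 0.25 to 0.54, adjusted p = 0.00384, limma).

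MTHFD2 (ENSG00000065911, chromosome 2, 74198562 to 74217565, plus strand), the mitochondrial methylenetetrahydrofolate dehydrogenase and cyclohydrolase, was at 164.37, 154.57 and 136.41 TPM in siNC and at 197.40, 159.63 and 193.98 TPM in siBCAT1. It was the only enzyme of the 9 whose groups overlapped, because siBCAT1 replicate 2 lay below siNC replicate 1. The means were 152 ± 14.2 and 184 ± 20.9 TPM, and the log2 fold change of 0.27 (SE 0.10, 95% interval 0.03 to 0.51) had an adjusted p of 0.0943 (limma). Without siBCAT1 replicate 2 the log2 fold change was 0.37 and the adjusted p was 0.0447 (limma).

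MTHFD1L (ENSG00000120254, chromosome 6, 150865549 to 151101887, plus strand), which releases formate from formyl-tetrahydrofolate in the mitochondrion, was at 31.21, 33.51 and 26.20 TPM in siNC and at 36.60, 34.19 and 34.86 TPM in siBCAT1. The groups did not overlap, but siNC replicate 2 and siBCAT1 replicate 2 differed by less than 1 TPM. The means were 30.3 ± 3.74 and 35.2 ± 1.24 TPM, and the log2 fold change of 0.22 (SE 0.10, 95% interval -0.02 to 0.45) had an adjusted p of 0.154 (limma) and passed the threshold in no alternative.

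ALDH1L2 (ENSG00000136010, chromosome 12, 105019784 to 105084577, minus strand), which oxidises the formyl group to carbon dioxide with gain of NADPH, was at 5.99, 4.40 and 4.21 TPM in siNC and at 10.22, 7.87 and 7.73 TPM in siBCAT1. It was the least abundant enzyme and had the highest fold change, with replicate 1 the highest library of both groups. The mean went from 4.87 ± 0.978 to 8.61 ± 1.40 TPM, a ratio of 1.77, with a log2 fold change of 0.71 (SE 0.16, 95% interval 0.33 to 1.10, adjusted p = 0.0179, limma). The adjusted p (limma) was 0.0602 with no filter on low values, and it was 0.0529 without siNC replicate 2, 0.0695 without siNC replicate 3, 0.0666 without siBCAT1 replicate 1 and 0.0515 without siBCAT1 replicate 2. The ALDH1L2 locus overlaps C12orf45 on the opposite strand, which was more abundant than ALDH1L2 itself (15.1 TPM in siNC and 20.6 TPM in siBCAT1), and the part of its reads in the ALDH1L2 values was not tested. Summed over the 4 mitochondrial enzymes, the level was 463 ± 31.4 TPM in siNC and 591 ± 38.0 TPM in siBCAT1, a ratio of 1.28. For SHMT1 plus MTHFD1 it was 826 ± 35.0 and 987 ± 16.5 TPM, a ratio of 1.19. Most of each siNC sum came from a single enzyme, SHMT2 (276 TPM) or MTHFD1 (795 TPM), so these ratios do not compare matched enzymes.

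**Figure D2:**
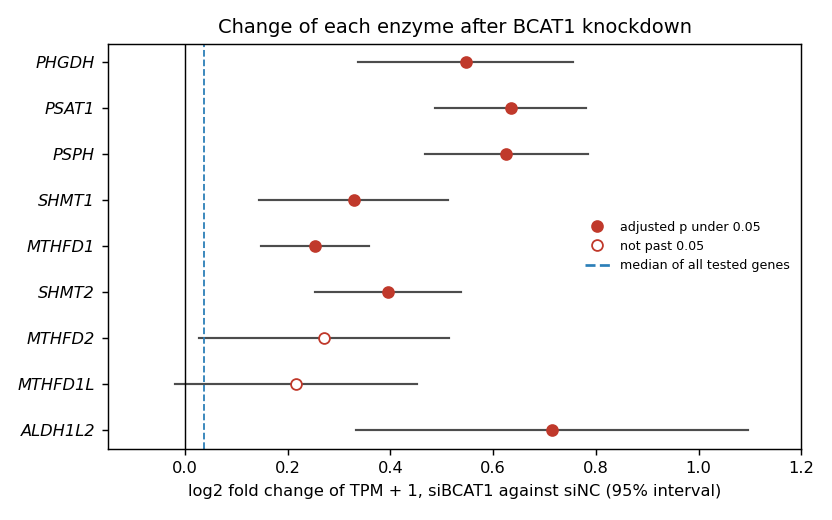
Log2 fold change of TPM + 1 (siBCAT1 against siNC, 3 libraries each) of the 9 enzymes with 95% intervals, filled where the adjusted p was under 0.05, with the median of all tested genes as a dashed line. The estimates run from 0.22 (MTHFD1L) to 0.71 (ALDH1L2), and the intervals of the 3 serine synthesis enzymes all start at 0.34 or higher.

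Single libraries differed in how far they stood from these means. ALDH1L2 in siNC had the widest relative spread of the 9 enzymes (SD 20.1% of the mean) and SHMT1 in siNC the narrowest (1.37%). In siBCAT1, replicate 1 was the highest library for 8 of the 9 enzymes, MTHFD1 being the exception, and 45.8% of all tested genes were highest there. In siNC, replicate 3 was the lowest for 5 of the 9, against 41.5% of all tested genes, and it was also the siNC library with the lowest BCAT1.

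The order of levels was MTHFD1, SHMT2, MTHFD2, PSAT1, PHGDH, PSPH, SHMT1, MTHFD1L and ALDH1L2 in siNC. The library ranges of MTHFD2 and PSAT1 overlapped there, as did those of SHMT1 and MTHFD1L, and all other neighbours were apart. In siBCAT1 the order was the same except that PSAT1 stood above MTHFD2 with ranges apart, and MTHFD2 then overlapped with PHGDH.

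The mitochondrial enzymes were set against their cytosolic counterparts within each library. SHMT2 made up 89.9% ± 0.644 of the summed SHMT1 and SHMT2 TPM in siNC and 90.3% ± 0.853 in siBCAT1. The difference in log2(TPM + 1) between SHMT2 and SHMT1 was 3.24, 3.06 and 3.06 in siNC and 3.14, 3.07 and 3.34 in siBCAT1, so the groups overlapped. The siBCAT1 mean was 0.07 above the siNC mean (exact two-sided permutation p = 0.5, adjusted p = 1 over the 3 pairs, n = 3 against 3). Single siBCAT1 libraries differed from single siNC libraries by -0.17 to 0.29.

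The pair of MTHFD2 and MTHFD1 overlapped between the groups too. MTHFD2 was 16.0% ± 1.34 of the summed TPM in siNC and 16.2% ± 1.77 in siBCAT1. Its log2 difference from MTHFD1 was -2.23, -2.43 and -2.50 in siNC and -2.23, -2.59 and -2.29 in siBCAT1, a shift of 0.02 with library differences from -0.36 to 0.27 (exact permutation p = 1, adjusted p = 1, n = 3 against 3). MTHFD1L was 3.67% ± 0.350 of the sum with MTHFD1 in siNC and 3.59% ± 0.186 in siBCAT1.

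The log2 difference of MTHFD1L from MTHFD1 was -4.59, -4.60 and -4.84 in siNC and -4.63, -4.78 and -4.73 in siBCAT1. The siBCAT1 libraries lay inside the siNC range, with a shift of -0.04 and library differences from -0.19 to 0.21 (exact permutation p = 0.8, adjusted p = 1, n = 3 against 3). With 3 libraries a group the smallest p this test allows is 0.1, so no shift in compartment could have passed 0.05, and the spread of the library differences is given in place of a call. ALDH1L1, the cytosolic counterpart of ALDH1L2, was at most 0.09 TPM and its pair was not compared.

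**Figure D3:**
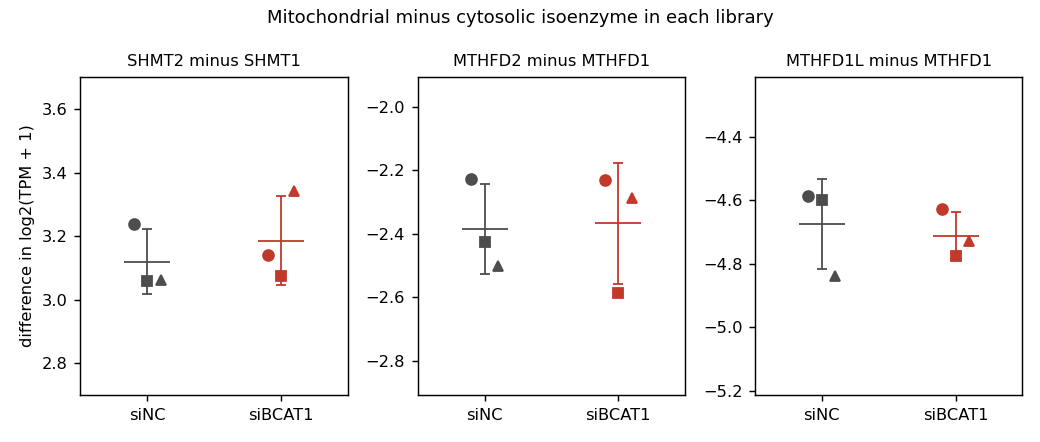
Difference in log2(TPM + 1) between the mitochondrial and the cytosolic enzyme in each library, for SHMT2 minus SHMT1, MTHFD2 minus MTHFD1 and MTHFD1L minus MTHFD1 (each axis spans 1 log2 unit, bars are mean ± SD of 3 libraries). The siNC and siBCAT1 points overlap in all 3 pairs.

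The genes around these enzymes were read from 7 lists of pathway genes and of regulators, with 51 genes tested. Of these, 14 (27.5%) rose and 4 (7.84%) fell, beside 16.7% and 10.4% of all tested genes. The list of regulators and other ATF4 targets supplied 15 of the 51 genes, 6 of the 14 that rose and 1 of the 4 that fell. The median log2 fold change of the 51 genes was 0.15. The call held for 9 of the 18 genes in all 14 alternatives run on single genes, which did not include a minimum fold change, and was lost in at least 1 for the other 9. No sign changed.

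In the rest of the folate cycle 1 of 8 tested genes rose and none fell (median 0.18). The gene that rose was MTFMT, which formylates mitochondrial initiator methionyl-tRNA (0.46, adjusted p = 0.0114, limma). The isoenzyme MTHFD2L had a log2 fold change of 0.42 and an adjusted p of 0.0612, and TYMS, which makes thymidylate, had 0.20 and 0.149. Of the 5 tested genes for folate uptake and retention (median 0.22), FPGS, which adds glutamates to folate, rose by 0.39 (adjusted p = 0.0151) and GGH, which removes them, rose by 0.31 (adjusted p = 0.0193). The call of FPGS was lost without siBCAT1 replicate 1 (0.0614) or 3 (0.0574). That of GGH was lost without any single library other than siNC replicate 2 (0.0502 to 0.0674) and under the 3 other scalings or corrections (0.0565 to 0.0747). Neither purine step that takes up formyl-folate passed the test, with 0.27 for GART and 0.17 for ATIC. None of the 3 tested genes of glycine cleavage did (median 0.08), and GLDC, its decarboxylase, was under the filter with 0.58 to 1.30 TPM.

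Serine transporters moved in both directions, with 2 of 7 tested higher and 2 lower (median 0.06). SLC1A5, a neutral amino acid exchanger of the plasma membrane, went from 153.3 ± 2.99 to 211.9 ± 17.0 TPM (0.46, adjusted p = 0.00317, limma), and SLC38A2, a sodium-coupled transporter, fell from 90.1 ± 3.57 to 69.2 ± 4.19 TPM (-0.38, adjusted p = 0.00774). Of the sideroflexins, SFXN3 fell (-0.72, adjusted p = 0.00694) and SFXN2 rose (0.76, adjusted p = 0.0394). The main mitochondrial serine carrier SFXN1 had 93.3 ± 12.6 TPM in siNC and 93.5 ± 13.9 TPM in siBCAT1 (0.00, adjusted p = 0.996). The call of SFXN2 was lost with no filter on low values (0.122) and without any single library other than siNC replicate 1 (0.0781 to 0.132).

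Of 11 tested genes that use serine or glycine, 3 rose and 1 fell (median 0.09). CBS, which joins serine to homocysteine, went from 68.3 ± 4.65 to 95.4 ± 5.0 TPM (0.48, adjusted p = 0.0039, limma). The serine racemase SRR rose by 0.69 (adjusted p = 0.00534) and the serine dehydratase-like SDSL rose by 0.66 (adjusted p = 0.00605). SPTLC3, a subunit of serine palmitoyltransferase, fell by 1.03 (adjusted p = 0.0163). The call of SPTLC3 was lost with no filter (0.0622) and without siNC replicate 1 or siBCAT1 replicate 2 or 3 (0.0541 to 0.0604).

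Of 15 regulators of the serine genes and other ATF4 targets, 6 rose and 1 fell, with a median of 0.08. ATF4 itself was at 392.01, 347.22 and 378.64 TPM in siNC and at 453.94, 404.33 and 481.26 TPM in siBCAT1, with no overlap and a log2 fold change of 0.26 (SE 0.08, adjusted p = 0.0451, limma). That call was lost in 9 of 14 alternatives, among them each left-out library other than siBCAT1 replicate 2 (0.0800 to 0.136). DDIT3, an ATF4-induced transcription factor of the stress response, went from 11.8 ± 1.02 to 24.3 ± 2.58 TPM, a log2 fold change of 0.98 (adjusted p = 0.00119). TRIB3, a pseudokinase induced with it, rose by 0.60 (adjusted p = 0.00694), and the calls of DDIT3 and TRIB3 held in all 14 alternatives that keep the adjusted p alone as the rule.

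ASNS, asparagine synthetase, rose by 0.47 (adjusted p = 0.0127, limma) and SESN2, a leucine-binding stress protein, rose by 0.69 (adjusted p = 0.0238). ASNS lost its call without siNC replicate 3 or siBCAT1 replicate 1 or 3 (0.0506 to 0.0527), and SESN2 did without siNC replicate 1 or siBCAT1 replicate 1 or 3 (0.0742 to 0.0921). The ATF4 targets CHAC1 (-0.17, adjusted p = 0.651) and ATF5 (0.45, adjusted p = 0.163) did not pass the test. MYC rose by 0.43 (adjusted p = 0.0209), a call lost without any siNC library or siBCAT1 replicate 1 (0.0502 to 0.0906). NFE2L2, which encodes the antioxidant regulator NRF2, fell by 0.41 (adjusted p = 0.022), a call lost without siNC replicate 1 (0.0798) or siBCAT1 replicate 2 (0.0643). With no filter on low values the calls of SESN2 (0.0748), MYC (0.0741) and NFE2L2 (0.0590) were lost too, and median-ratio scaling ended that of MYC (0.0639).

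**Figure D4:**
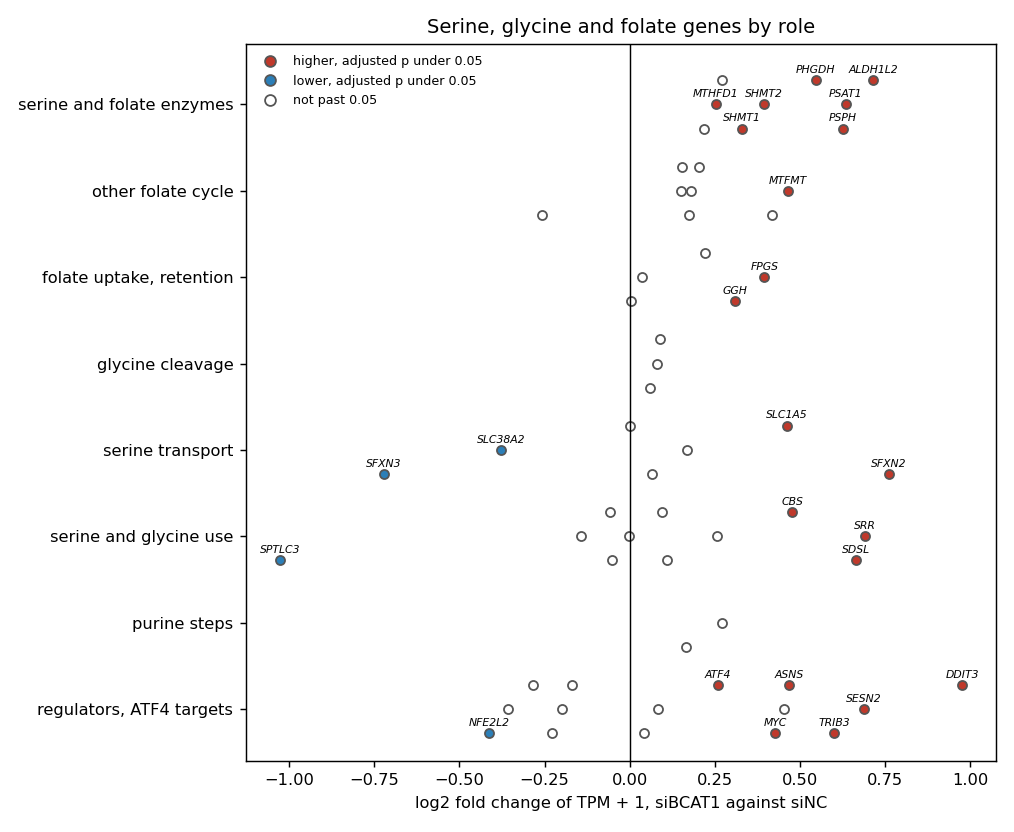
Log2 fold change of TPM + 1 (siBCAT1 against siNC) for the 9 enzymes and for the 51 tested genes of 7 related lists, red where called higher, blue where called lower and open where the adjusted p did not pass 0.05. Called genes that fell stand in serine transport, in serine and glycine use and among the regulators.

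The genes with the profile most like each enzyme were found by Euclidean distance in centred log2(TPM + 1) over the 6 libraries, and these distances (3 genes for each enzyme) ran from 0.0397 to 0.142. PSPH was among the 3 nearest of PSAT1 (distance 0.0849), the only case in which 1 of the 9 enzymes had another among its nearest. ALDH1L2 was closest to GPT2, the mitochondrial alanine transaminase (distance 0.0833, log2 fold change 0.74), followed by CENPP and ADPRHL1. The others nearest to PSAT1 were ENSG00000260927, which has no symbol in the table, and URI1, and those nearest to PSPH were the same unnamed gene, RIDA and PARP1. PHGDH was nearest to SIPA1L1, DET1 and NUTM2A-AS1, SHMT1 to ENSG00000285920, KLHDC4 and TBC1D24, and MTHFD1 to VPS29, RANGAP1 and TACO1. SHMT2 was nearest to RAB5A, ZNF554 and ZNF324B, MTHFD2 to USP3, AKAP12 and DLK2, and MTHFD1L to PRORP, GAPVD1 and HK2-DT. Over 6 libraries these distances depend largely on the difference between the groups. The 3 genes nearest to PSAT1 had log2 fold changes of 0.62 to 0.65. Shared regulation of near genes was not tested.

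Promoter windows of 250 bases before to 50 after the start (RefSeq, GRCh38.p14) were at hand for 6 of the 9 enzymes, with 9 windows in all. MTHFD1L had several of these windows, so the shares over single windows given below are not a like measure for it. PSPH, SHMT2 and ALDH1L2 had none in the table. The motifs listed next were searched on both strands because they are known for regulators of these genes: TGATGNAA, the C/EBP-ATF composite element that ATF4 binds (in 3.62% of 35116 windows), CACGTG, the E-box that MYC binds (7.26%), and TGACNNNGC, the antioxidant response element of NRF2 (13.3%). TGATGNAA was found for MTHFD1L alone, CACGTG for MTHFD1L and MTHFD1, and TGACNNNGC for MTHFD2 alone, on the minus strand 7 bases after the start. The windows of PHGDH, PSAT1 and SHMT1 held none of these letters. The 30 bases around each match that lies before the start are shown for MTHFD1 and for the first MTHFD1L window, with the match in capitals and all on the plus strand. The first is MTHFD1 at chr14:64388323-64388352, with the E-box 15 bases before the RefSeq start used for its window. The other 2 are from the first MTHFD1L window, with the composite element within the 30 bases of chr6:150866346-150866375 and the E-box within those of chr6:150866320-150866349. Their place depends on the start used. In the MTHFD1L window from 150866083 to 150866382 the composite element began 25 bases after the start and the E-box 1 base before it. The MTHFD1L window from 151006758 to 151007057 held no match.
MTHFD1 E-box: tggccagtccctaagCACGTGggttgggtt
MTHFD1L composite element: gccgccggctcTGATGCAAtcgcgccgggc
MTHFD1L E-box: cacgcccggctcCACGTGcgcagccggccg
A match is a description of letters in this window and no evidence of binding.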

How the data were processed

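The 6 libraries were grouped by their labels. The authors trimmed reads with fastp, aligned them to GRCh38 with HISAT2 and assembled transcripts with StringTie, per the labels (versions are not given in the sources used here). They deposited 1 TPM value per gene and library to 2 decimals, the unit being inferred from the numbers, which sum to 992512 to 995593 per library. TPM keeps no total depth, so no counting error can be given, and precision rests on the spread between libraries. Genes averaging 1 TPM or more were tested on the log2(TPM + 1) scale, which understates fold changes of low genes. The moderated two-sided test of limma 3.58.1 (trended eBayes, R 4.3.3) was used, and p-values were adjusted by Benjamini-Hochberg. Isoenzyme differences were tested by exact permutation of libraries (Python 3.11.15, numpy 2.4.6, pandas 2.3.3). The limma fit was also run on data simulated from the gene means and spread of these libraries. It called a share of 0.25 of 100 genes changed by 0.5 on the log2 scale. The share was 0.66 of 100 genes changed by 1. Far fewer genes were changed there than were called in these data, so these shares need not hold here. A gene that did not pass the test may still have changed. The permutation test and the motif search were checked on small cases with known answers. The enzymes, lists and motifs were chosen with earlier results of these data known, and 1 item is not reported here. Named genes were all 9 enzymes, BCAT1, list genes past the threshold and the 3 nearest profiles of each enzyme. List genes named below the threshold (MTHFD2L, TYMS, GART, ATIC, GLDC, SFXN1, CHAC1, ATF5, ALDH1L1) and marker values were chosen after their values were seen. Gene positions are from GENCODE 29. The highest level of the 14 pseudogenes named after an enzyme was 1.21 TPM. Identical values between libraries were at most 1.42% of tested genes. The alternatives tried were other filters, a pseudocount of 0.1, a replicate block, median-ratio scaling, quantile normalization, a loess fit on length and GC content, a minimum log2 fold change of 1 and each library left out.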

Additional observations from a re-analysis of the deposited data

How the results depend on the processing

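All 9 enzymes kept a fold change above 0 in every setting, and BCAT1 stayed lower (-2.28 to -2.03). The count of enzymes called was 7, and it was 5 to 7 with 1 library left out, 6 with no filter or with median-ratio scaling and 0 with a log2 fold change of at least 1. Over all genes 3865 were called, 2567 with no filter, 448 with a log2 fold change of at least 1 and 2318 to 3706 with 1 library left out. In the 7 lists 18 were called, 11 to 18 with 1 library left out (11 without siBCAT1 replicate 1 or 3). The isoenzyme shifts were near 0 and changed sign. MTHFD2 minus MTHFD1 was -0.10 under quantile normalization and -0.0241 under the loess correction, also with the replicate block, and -0.0510 to 0.127 with 1 library left out. SHMT2 minus SHMT1 was -0.0125 to 0.126 and MTHFD1L minus MTHFD1 was -0.118 to 0.00718 with 1 library left out. Same-numbered libraries had correlated deviations of 0.08, 0.10 and 0.12, so the pairing of replicate numbers was not taken as given, although every library correlated best with its own number. The replicate block gave 4568 calls over all genes, 7 enzymes and 24 list genes. The block with the loess correction was chosen after seeing the data. The cause of these changes was not tested. The unknown depth limits the low values.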
